A study of Drosophila melanogaster with 8 samples.

Results

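The nicotinic acetylcholine receptor subunits of Drosophila melanogaster are 10 genes, nAChRalpha1 to nAChRalpha7 and nAChRbeta1 to nAChRbeta3. They were chosen by gene name, and all 10 were found in each library among 17137 reference genes. RNA was sequenced from cells sorted from dissociated central brains of adult flies 2 to 7 days old, with the optic lobes removed. The 4 groups were male fru+ cells, female fru+ cells, male fru- cells and female fru- cells, with 2 libraries each. All groups came from w1118 flies carrying UAS-mCD8-GFP/MB247-Gal80 and Fru-GAL4/+. The fru+ cells carried the membrane GFP driven by Fru-GAL4, with MB247-Gal80 blocking GAL4 in mushroom body neurons, and the fru- cells were those without GFP. The fru- cells are therefore a mixture of all remaining cell types, and the fru+ cells depend on where the GAL4 line is active. Each library came from cells of many brains sorted together, and each replicate number stands for a sorting session that the sexes shared.

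Nicotinic receptors are pentameric cation channels that open when acetylcholine binds between neighbouring subunits. Acetylcholine is the main fast excitatory transmitter of the insect central brain, and these receptors are the targets of neonicotinoid and spinosyn insecticides. Alpha subunits carry a pair of adjacent cysteines in the loop that contacts the transmitter, which beta subunits lack. Different combinations of subunits give receptors of different pharmacology.

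The sort and the tissue were checked first. fru stood at 56.2 and 63.1 TPM in the male fru+ libraries, 71.6 and 61.0 in the female fru+ libraries, against 8.19 and 7.39 in the male fru- libraries and 3.75 and 15.1 in the female fru- libraries. The unit, TPM, is StringTie's transcript abundance, corrected for gene length and scaled to the library. Aligned sequence ran from 3.16 to 4.93 Gb per library, as derived from the deposited coverage and FPKM. The 5 neuronal markers summed to 1921 to 3434 TPM. The 7 glial markers summed to 302 to 576 TPM in fru+ libraries and 419 to 1572 TPM in fru- libraries, and the 5 Kenyon cell markers to 862 to 1345 TPM in fru+ and 1276 to 1516 TPM in fru- libraries, with none of these markers at 0 in any library. Most of the Kenyon cell sum was sNPF (582 to 999 TPM). ey stood at 11.8 to 12.9 TPM in fru+ and 30.8 to 53.0 in fru- libraries. The levels of prt and toy were also lower in fru+ without overlap, as 15.5% of all tested genes did not overlap. Those of mub and sNPF overlapped. Markers of other tissues were low, with sums of at most 1.36 TPM for muscle (3 genes), 14.0 TPM for fat body (4 genes), 23.7 TPM for retina (4 genes) and 31.1 TPM for haemocytes (4 genes). The part of glial and Kenyon cells in the differences between fru+ and fru- libraries was not tested. In such pools, fewer cells that express a subunit cannot be told apart from less RNA of it per cell.

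nAChRbeta1 was the most abundant subunit in every library. Its level was 1993 and 1600 TPM in the male fru+ libraries, 1980 and 1456 in the female fru+ libraries, 1705 and 1502 in the male fru- libraries and 1248 and 1533 in the female fru- libraries. It ranked between 55 and 104 among the 17137 genes, and in each library it stood at least 3.28 times above nAChRbeta2. nAChRbeta1 lies at chr3L:4429349-4435993 on the plus strand (dm6) and has 2974 bases of annotated exon.

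The next 3 subunits by mean level were nAChRbeta2, nAChRalpha2 and nAChRalpha7, whose mutual order differed between libraries. nAChRbeta2 stood at 266 and 304 TPM in the male fru+ libraries, 318 and 323 in the female fru+ libraries, against 332 and 348 in the male fru- libraries and 381 and 342 in the female fru- libraries. nAChRalpha2 stood at 266 and 273 TPM in the male fru+ libraries, 307 and 229 in the female fru+ libraries, against 329 and 337 in the male fru- libraries and 320 and 364 in the female fru- libraries. For both genes every fru+ library was below every fru- library. The levels of 15.5% of all tested genes did not overlap either, counting both directions. nAChRalpha2 and nAChRbeta2 are neighbours on chromosome 3R, at chr3R:24485428-24491147 on the plus strand and chr3R:24509228-24515106 on the minus strand, with 18080 bases between them. nAChRalpha1 lies 28270 bases to the left of nAChRalpha2, at chr3R:24393896-24457157 on the minus strand, so that the 3 genes span 121211 bases.

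nAChRalpha7 stood at 287 and 270.0 TPM in the male fru+ libraries, 410 and 246 in the female fru+ libraries, 332 and 305 in the male fru- libraries and 130 and 318 in the female fru- libraries. The low value was that of replicate 1 of the female fru- cells, and the high value that of replicate 1 of the female fru+ cells. nAChRalpha6, the target of the insecticide spinosad, stood at 240.3 and 164 TPM in the male fru+ libraries, 257 and 129 in the female fru+ libraries, 286 and 238 in the male fru- libraries and 127 and 251 in the female fru- libraries. It was below nAChRalpha7 in all 8 libraries, by a ratio of at least 1.02. nAChRalpha5, nAChRalpha6 and nAChRalpha7 are the subunits most similar to the vertebrate alpha7 receptor. nAChRalpha7 lies at chrX:19327075-19348447 on the minus strand and nAChRalpha6 at chr2L:9793317-9886250 on the minus strand.

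The remaining 4 alpha subunits were listed at no more than 80.2 TPM in any library. nAChRalpha5 (chr2L:14040170-14094401, plus strand) stood at 59.6 and 49.6 TPM in the male fru+ libraries, 79.0 and 51.1 in the female fru+ libraries, 80.2 and 54.6 in the male fru- libraries and 23.8 and 59.9 in the female fru- libraries. nAChRalpha3 (chrX:8276200-8367169, minus strand) stood at 54.4 and 41.9 TPM in the male fru+ libraries, 74.0 and 51.9 in the female fru+ libraries, 46.6 and 44.3 in the male fru- libraries and 23.1 and 62.7 in the female fru- libraries. The fru+ and fru- libraries overlapped for both, and the lowest library was again replicate 1 of the female fru- cells. nAChRalpha1 stood at 45.1 and 39.2 TPM in the male fru+ libraries, 59.2 and 40.2 in the female fru+ libraries, 43.0 and 40.3 in the male fru- libraries and 18.6 and 44.6 in the female fru- libraries. nAChRalpha4 (chr3L:23206669-23287448, plus strand) stood at 20.6 and 20.9 TPM in the male fru+ libraries, 29.4 and 18.0 in the female fru+ libraries, 24.8 and 20.4 in the male fru- libraries and 18.3 and 21.3 in the female fru- libraries. Its highest library was 1.63 times its lowest, against 3.38 times for nAChRalpha5. Of the 9 pairs of neighbours in the order of mean levels, 6 stood in that order in all 8 libraries. The exceptions were nAChRbeta2 and nAChRalpha2 (in order in 6 libraries), nAChRalpha2 and nAChRalpha7 (4 libraries), and nAChRalpha5 and nAChRalpha3 (6 libraries).

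**Figure D1:**
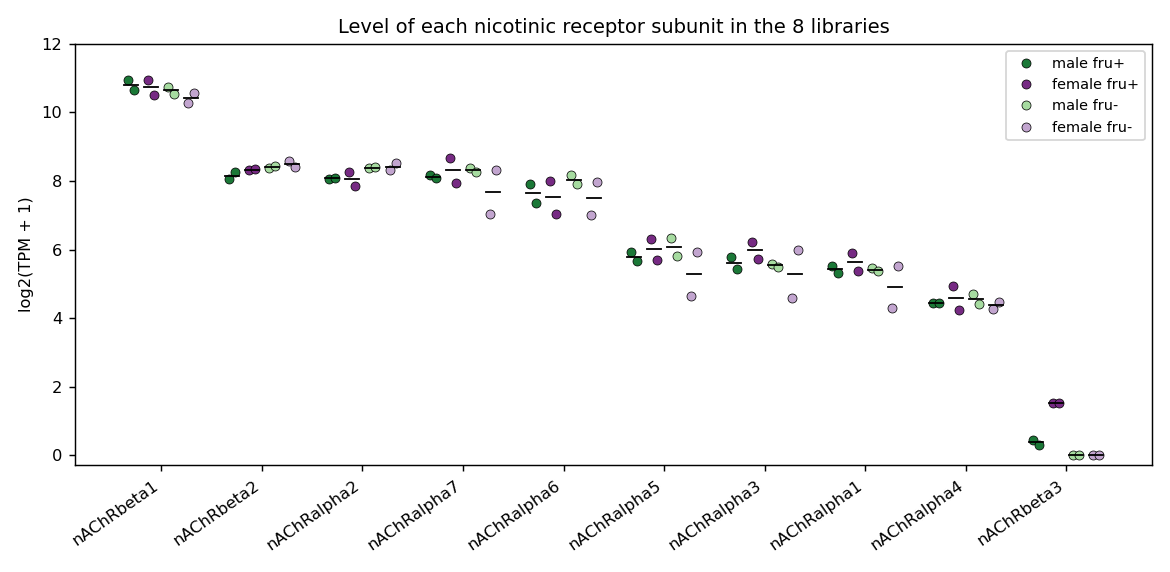
Each point is the level of a subunit in 1 library as log2(TPM + 1), the bars are the means of the 2 libraries of a group, and the subunits run from the highest to the lowest mean over the 8 libraries. nAChRbeta1 stood above the other subunits in every library, and nAChRbeta3 was above 1 TPM in the female fru+ libraries only.

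nAChRbeta3 was close to the limit of the tables. It stood at 0.364 and 0.222 TPM in the male fru+ libraries, at 1.88 and 1.84 in the female fru+ libraries, and at 0 in all 4 fru- libraries. A value of 0 in a table without counts can be a level too low to be estimated, so no fold is given against the fru- libraries. nAChRbeta3 lies at chr2L:545129-547096 on the plus strand, and all 1532 of its exonic bases are also covered by exons of Ets21C, which encodes an ETS transcription factor and lies on the other strand. Ets21C stood at 0.994 and 2.60 TPM in the male fru+ libraries, 1.54 and 3.98 in the female fru+ libraries, 1.04 and 1.02 in the male fru- libraries and 0.116 and 0.160 in the female fru- libraries. The libraries were not stranded, so unspliced reads of the 2 genes cannot be told apart. Assembled loci listed on the plus strand overlapped nAChRbeta3 in the 2 female fru+ libraries, at 3.02 and 1.84 TPM, and in none of the other 6. In replicate 2 of the female fru+ cells the locus had the coordinates and the TPM of the reference gene. As the libraries were not stranded, the listed strand does not by itself separate the 2 genes. nAChRalpha3 shares 251 exonic bases with CG1636 on the other strand, which was listed at 130 to 166 TPM, and the other 8 subunits share exons with no annotated gene.

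The composition of the pool was computed as the share of each subunit in the summed TPM of the 10. nAChRbeta1 made up 61.7% and 57.9% in male fru+ cells and 56.3% and 57.2% in female fru+ cells, against 53.6% and 52.0% in male fru- cells and 54.5% and 51.2% in female fru- cells. All 4 fru+ libraries lay above all 4 fru- libraries. nAChRalpha2 made up 8.24% and 9.89% in male fru+ cells and 8.74% and 8.98% in female fru+ cells, against 10.4% and 11.7% in male fru- cells and 14.0% and 12.2% in female fru- cells, again without overlap and with the lower shares in fru+. Since the shares sum to a fixed total, a higher share of nAChRbeta1 lowers the others. The ratio of nAChRbeta1 to nAChRalpha2 is free of that and of any scaling between libraries. It rests on the same levels as the shares and is no separate evidence. It was 7.48 and 5.85 in male fru+ cells and 6.44 and 6.37 in female fru+ cells, against 5.18 and 4.45 in male fru- cells and 3.90 and 4.21 in female fru- cells. The ratios of nAChRbeta1 to the other 7 subunits listed above 0 in every library overlapped between fru+ and fru- libraries. The shares and ratios were compared by their ranges and not by a test, and no share over all genes was computed for them. With the loci that the authors assembled from the reads, in place of the reference genes, the nAChRbeta1 shares overlapped between fru+ and fru- libraries. They then ran from 39.8% to 50.7%. The nAChRalpha2 shares stayed without overlap.

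The other mean shares over the 8 libraries were 11.4% for nAChRbeta2, 9.66% for nAChRalpha7, 7.12% for nAChRalpha6, 1.92% for nAChRalpha5, 1.68% for nAChRalpha3, 1.39% for nAChRalpha1, 0.742% for nAChRalpha4 and 0.0181% for nAChRbeta3. The 7 alpha subunits together made up 28.9% to 37.4% of the pool. The lowest alpha share was in replicate 1 of the female fru- cells, where nAChRbeta2 reached 16.6%, its highest share, and nAChRalpha7 5.67%, its lowest.

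**Figure D2:**
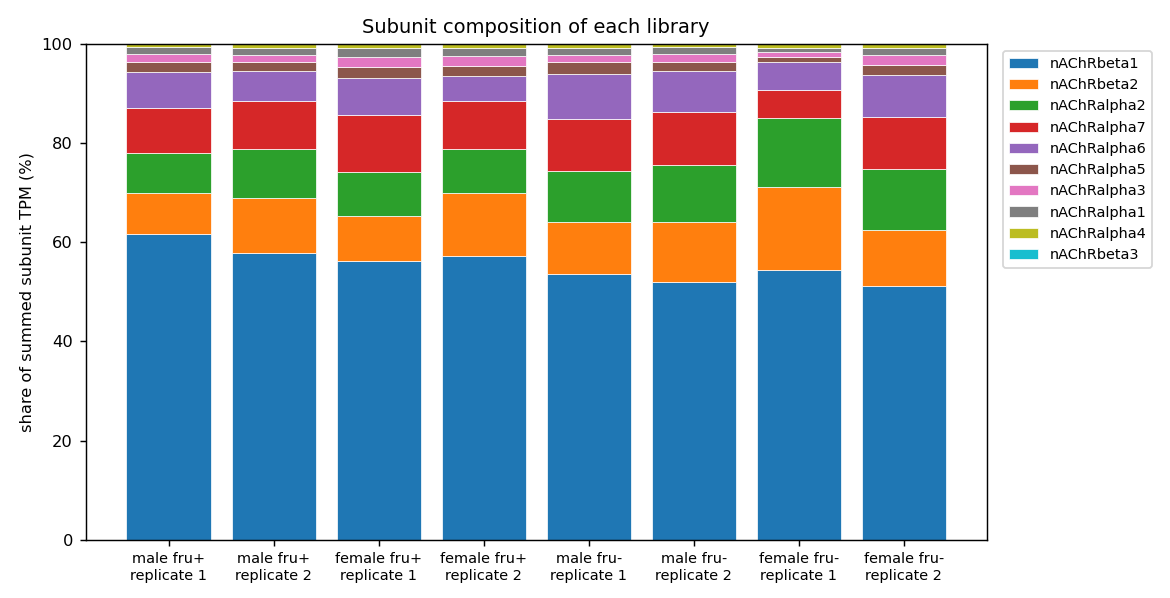
Stacked bars give the share of each subunit (percent) in the summed TPM of the 10 subunits of each library. nAChRbeta1 took 56.3% to 61.7% of the pool in the fru+ libraries and 51.2% to 54.5% in the fru- libraries. With assembled loci in place of the reference genes these ranges overlapped.

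The summed level of the 10 subunits was 2998 ± 332 TPM in the male fru+ libraries, 3031 ± 686 in the female fru+ libraries, 3035 ± 204 in the male fru- libraries and 2643 ± 500 in the female fru- libraries (SD, n = 2 each). The log2 ratio of the group means was -0.018 for male fru+ over male fru-, 0.20 for female fru+ over female fru-, -0.016 for male over female fru+ and 0.20 for male over female fru-, and each was smaller than the SD between replicates on the log2 scale (0.13, 0.30, 0.26 and 0.21). Under a median-of-ratios scaling of the libraries the first of these was 0.13. The female fru+ over fru- ratio was 0.62 in session 1 and -0.23 in session 2, and ran from -0.054 without replicate 1 to 0.41 without replicate 2 of the female fru+ cells. That of male over female fru+ was 0.24 and -0.23 without these same libraries. The 12 other genes of the Cys-loop channel superfamily, the channels gated by GABA, glutamate, histamine or protons and their relatives, summed to 699 to 1049 TPM, so that the nicotinic subunits were 3.01 to 4.04 times as high.

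The question of whether subunits differ with fru status was tested with limma on log2(TPM + 1) across 10111 genes with at least 1 TPM in at least 2 libraries. nAChRbeta3 passed this filter through its female fru+ libraries alone, so the counts that follow describe the 10 genes and carry no further weight, and no fitted difference is given for it. Between all fru+ and all fru- libraries no subunit passed an adjusted p of 0.05 (Benjamini-Hochberg), where 5.29% of all genes tested did. An unadjusted limma p under 0.05 was found for 2 of 10 subunits and for 2378 of the 10111 genes. Of the 535 genes called, 151 were higher and 384 lower in fru+ cells, and 259 higher and 221 lower under the median-of-ratios scaling. In males 0 of 10 were called against a background of 0.514%. There 0 of 10 and 1354 of all genes had an unadjusted limma p under 0.05. In females 0 of 10 were called against 0.653%. There 1 of 10, nAChRbeta3, and 1488 of all genes had an unadjusted limma p under 0.05. With the replicate number as a block, 34 genes were called in females in place of 66, and no subunit. At these backgrounds a count of 0 among 10 genes is close to the share of all genes. The separate levels of nAChRalpha2 and nAChRbeta2 are likewise read against the 15.5% of all tested genes whose 4 fru+ and 4 fru- levels did not overlap. Those of nAChRbeta3, listed at 0 in all fru- libraries and tested only because of its female fru+ libraries, are not read in this way.

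nAChRalpha2 was lower by 0.33 on the log2 scale in fru+ cells over both sexes (SE 0.12, 95% interval -0.61 to -0.059), with an unadjusted limma p of 0.0222 and an adjusted p of 0.142 (0.0584 to 0.473 over the alternatives). The difference was -0.30 in males, and in both of their sessions. In females it was -0.36, from -0.056 in session 1 and -0.67 in session 2, and it was -0.57 without replicate 1 and -0.15 without replicate 2 of the female fru+ cells. For nAChRbeta2 the difference was -0.22 (SE 0.11, interval -0.45 to 0.020, limma adjusted p = 0.250), and for nAChRbeta1 it was 0.23 (SE 0.14, interval -0.088 to 0.54, limma adjusted p = 0.365). The median difference of all tested genes in this comparison was -0.12, and a median-of-ratios scaling moved it to -0.0020. Under that scaling nAChRalpha2 stood at -0.20, nAChRbeta2 at -0.079 and nAChRbeta1 at 0.36. After centring each library within classes of exonic length, a setting chosen after the data were seen, nAChRalpha2 stood at -0.14 (limma adjusted p = 0.473) and nAChRbeta2 at 0.0071, while nAChRbeta1 stood at 0.46 (limma adjusted p = 0.111).

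The other 6 subunits had differences between -0.18 (nAChRalpha6) and 0.38 (nAChRalpha3) with SEs of 0.20 to 0.28, and their intervals together spanned -0.77 to 0.99. Differences of this size in either direction were therefore not detectable with the spread of these libraries. nAChRbeta3 left aside, the intervals were narrowest for nAChRbeta2, the subunit that agreed best between replicates.

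In females 4 alpha subunits had the highest estimates, nAChRbeta3 left aside. nAChRalpha1, nAChRalpha3, nAChRalpha5 and nAChRalpha7 had differences of 0.73, 0.68, 0.73 and 0.64 with limma adjusted p between 0.380 and 0.448. These means joined 2 unlike sessions. In session 1 fru+ was higher by 1.62, 1.64, 1.69 and 1.65 on the log2 scale, and in session 2 the differences were -0.15, -0.27, -0.22 and -0.37. Without replicate 2 of the female fru- cells, where replicate 1 stood alone and was assumed to vary like the other groups, nAChRalpha3 (1.39, limma adjusted p = 0.0413) and nAChRalpha7 (1.29, limma adjusted p = 0.0376) passed the threshold. Without replicate 1 of these cells the differences were -0.017 and -4.56e-05.

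**Figure D3:**
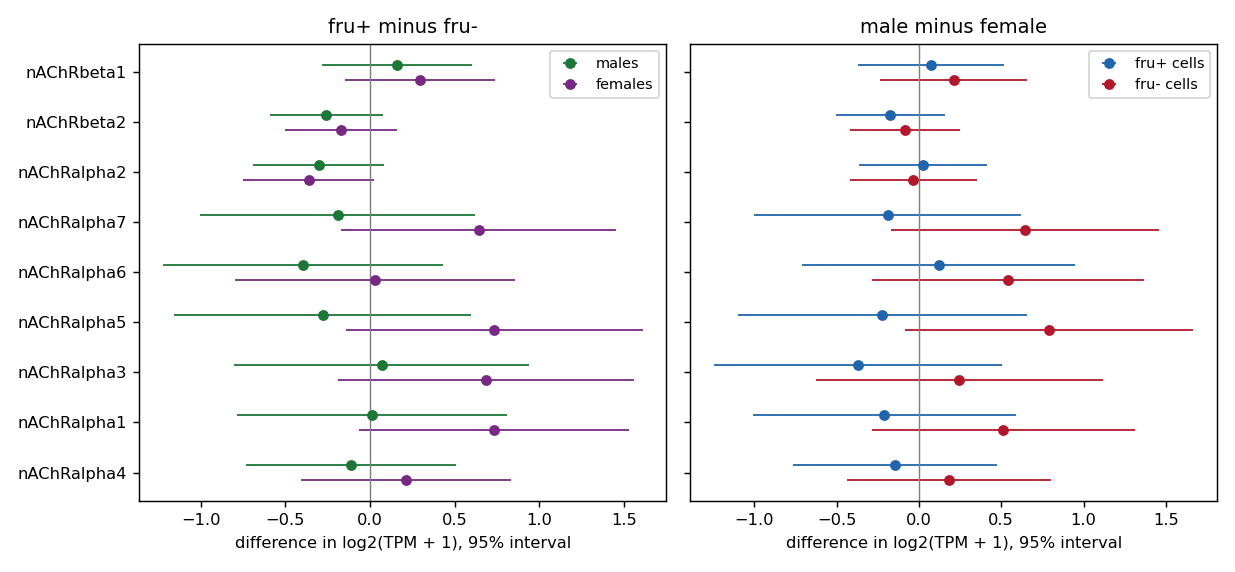
Points are the limma differences in log2(TPM + 1) with 95% intervals, for fru+ minus fru- in males and females (left) and for male minus female in fru+ and fru- cells (right). All intervals of the 9 subunits shown include 0, and nAChRbeta3, listed at 0 in the fru- libraries, is left out.

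Whether subunits differ between the sexes was tested in the same fit. In fru+ cells, male against female, 0 of 10 subunits were called, where 0.089% of all genes were. An unadjusted limma p under 0.05 was found for 429 of all genes and for 1 subunit of 10. That subunit was nAChRbeta3, which entered the test only through its female fru+ libraries. In fru- cells 0 of 10 were called against a background of 0.109%. There 0 of 10 and 505 of all genes had an unadjusted limma p under 0.05. Between all male and all female libraries 0 of 10 were called against 0.227%. Again 0 of 10 had an unadjusted limma p under 0.05, where 678 of all genes did. The X-linked subunits nAChRalpha3 and nAChRalpha7 had male minus female differences of -0.062 (interval -0.68 to 0.56) and 0.23 (interval -0.35 to 0.80). The interaction of sex and fru status, which asks whether the fru+ difference in males departs from that in females, was called for 0 of 10 subunits and for 0.0% of all genes, with 0 of 10 and 237 of all genes at an unadjusted limma p under 0.05. The estimates were -1.01 for nAChRalpha5 (interval -2.25 to 0.23) and -0.83 for nAChRalpha7 (interval -1.98 to 0.31). Without replicate 1 of the female fru- cells they were -0.36 and -0.19. nAChRbeta3 is not given here.

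The subunits did not vary alike across the libraries. The SD within groups on the log2 scale was 0.48 for nAChRalpha1, 0.54 for nAChRalpha3, 0.55 for nAChRalpha5, 0.54 for nAChRalpha6 and 0.53 for nAChRalpha7, between the 79.8th and the 86.2nd percentile of all tested genes. It was 0.17 for nAChRalpha2, 0.23 for nAChRbeta1, 0.27 for nAChRalpha4 and 0.091 for nAChRbeta2, the last at the 3.94th percentile. The 5 more variable subunits all had at least 5000 exonic bases in total, as did nAChRalpha4, which varied less. nAChRalpha1 has 11027 exonic bases, nAChRalpha3 10506, nAChRalpha5 9373, nAChRalpha6 7779, nAChRalpha4 6050 and nAChRalpha7 5778, whereas nAChRbeta2 has 4018, nAChRbeta1 2974 and nAChRalpha2 2387.

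In replicate 1 of the female fru- cells the 6 subunits with at least 5000 exonic bases stood 1.03 log2 units below their means over the 8 libraries (median, range -1.16 to -0.22), and the 3 shorter subunits other than nAChRbeta3 had a median of 0.090. The same measure was -0.18 over the 1291 tested genes of at least 5000 exonic bases and 0.041 over the 8780 shorter ones. In replicate 1 of the female fru+ cells the 6 long subunits had a median of 0.55, against 0.13 for all long genes and -0.095 for all shorter ones. In the other 6 libraries the medians of the long subunits lay between -0.12 and 0.23. In both libraries the median of the long subunits lay on the same side of 0 as that of all long genes, and farther from it. The glial markers summed to 1572 TPM in replicate 1 of the female fru- cells, the highest of the 8 libraries, and the neuronal markers to 1921 TPM, the lowest. The parts of gene length and of cell content in this departure were not tested.

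**Figure D4:**
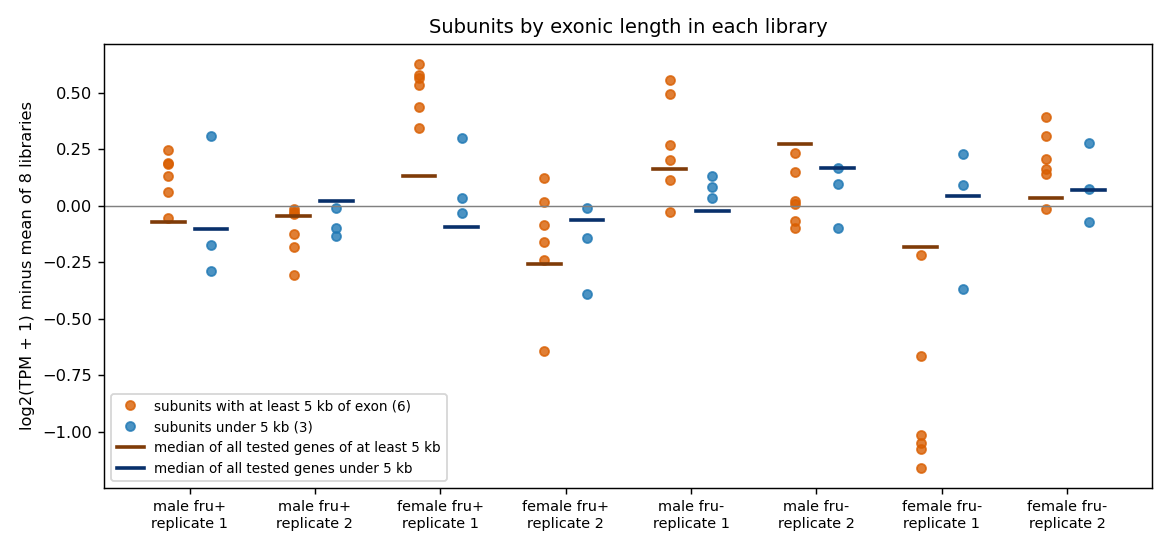
Points are the log2(TPM + 1) of each subunit minus its mean over the 8 libraries, for the 6 subunits with at least 5000 exonic bases and for 3 shorter ones, and the bars are medians over all tested genes of the same length class. In replicate 1 of the female fru- cells the long subunits had a median of -1.03, against -0.18 for all long genes.

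As a description over the 8 libraries, which share these sources of variation, the levels of nAChRalpha1 and nAChRalpha7 had a Pearson r of 0.97, those of nAChRalpha1 and nAChRalpha3 0.96 and those of nAChRalpha1 and nAChRalpha2, neighbours on the chromosome, -0.067. Among genes outside the family, those most like the summed subunit level over the 8 libraries were ab (r = 0.97), spoon (r = 0.97) and vib (r = 0.97).

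The level of some subunits depended on the gene model. The authors also listed loci that they assembled from the reads. Of the loci overlapping a subunit on its strand, the one with the highest TPM was taken, which can raise the ratios. The assembled locus had the same TPM as the reference gene for nAChRalpha2 and nAChRbeta2 (ratio 1 in all 8 libraries) and nearly so for nAChRbeta1 (0.950 to 1). For nAChRalpha4 it was 3.43 to 4.87 times as high, for nAChRalpha6 1.46 to 4.86 times, for nAChRalpha1 1.24 to 5.50 times and for nAChRalpha3 2.52 to 8.65 times. The locus of nAChRalpha3 covered the whole gene in 2 libraries and 41.0% to 41.5% of it in the other 6, at its 5′ end. That of nAChRalpha6 covered the whole gene in 4 libraries. It covered 99.88% in male fru+ replicate 2 and in male fru- replicate 1, and 96.1% in female fru- replicate 1. In male fru+ replicate 1 the nAChRalpha6 locus covered 11.3% of the gene and ran 51884 bases past its 5′ end. In most other libraries it ran 11302 bases past that end. Loci of nAChRalpha7 ran up to 33062 bases past its 3′ end, and some of nAChRalpha5 38887 bases past its 5′ end. The assembled levels can therefore include sequence outside the annotated genes. With assembled loci nAChRalpha6 was the second subunit by mean level, with 14.7% of the pool, nAChRalpha3 had 7.23% and nAChRbeta1 43.6%. nAChRbeta1 remained the highest subunit in all 8 libraries, at least 2.01 times above nAChRalpha6.

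**Figure D5:**
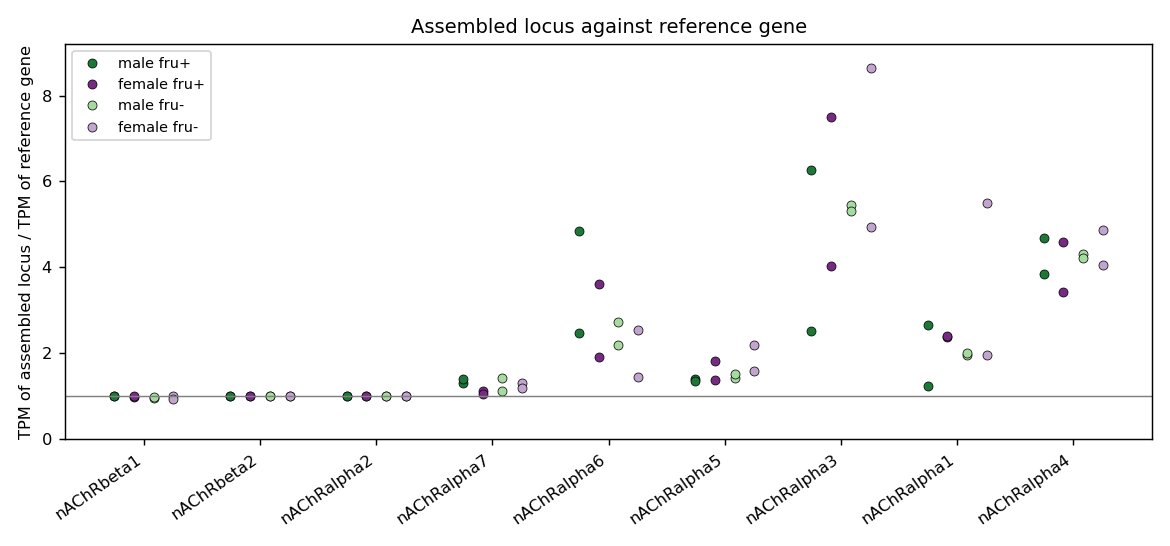
Points are the ratio of the TPM of the assembled locus to the TPM of the reference gene in each library, with a line at 1. The ratio was 1 for nAChRalpha2 and nAChRbeta2 in all libraries and between 2.52 and 8.65 for nAChRalpha3.

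The genes that produce and clear acetylcholine, and its muscarinic receptors, were listed beside the subunits. Of 7 such genes 6 were tested and none passed the threshold in any comparison. Between all fru+ and all fru- libraries 3 of 6 had an unadjusted limma p under 0.05, as had 2378 of all 10111 genes. ChAT, which makes acetylcholine, stood at 384 and 352 TPM in the male fru+ libraries, 344 and 231 in the female fru+ libraries, against 447 and 479 in the male fru- libraries and 349 and 441 in the female fru- libraries, a difference of -0.40 (limma adjusted p = 0.135). VAChT, the vesicular transporter, lay between 75.7 and 108 TPM and Ace, the acetylcholinesterase, between 66.0 and 139 TPM. The choline transporter gene CG7708 had the highest mean of the list, 379 TPM, close to the 378 TPM of ChAT. The median difference of the 6 genes between all fru+ and all fru- libraries was -0.24, against -0.12 for all tested genes.

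Of 6 genes whose proteins act on nicotinic receptors or their transcripts, 1 rose in fru+ cells, where 5.29% of all genes were called. twit, which encodes a small membrane protein of the Ly6 family, stood at 112 and 141 TPM in the male fru+ libraries, 54.9 and 181 in the female fru+ libraries, against 18.5 and 28.2 in the male fru- libraries and 13.1 and 36.6 in the female fru- libraries. The levels did not overlap, as for 15.5% of all tested genes, and the difference over both sexes was 2.27 on the log2 scale (SE 0.39, limma adjusted p = 0.0130). The call was lost without the filter on low values (adjusted p = 0.103), without the trend of the variance (adjusted p = 0.0569) and without either library of the male fru+ or the male fru- cells (adjusted p of 0.0553 to 0.0688), with limma differences of 1.84 to 2.70 when single libraries were left out. Within males and within females it was 2.41 (limma adjusted p = 0.105) and 2.13 (limma adjusted p = 0.126). Hasp, a scaffold protein of cholinergic synapses, was the most abundant of the list at 2108 to 2797 TPM. The median difference of the 6 genes was 0.0089.

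Of the 12 other Cys-loop channel genes 11 were tested and 1 passed the threshold, in the direction of lower levels in fru+ cells, against 5.29% of all genes, most of them lower (384 of 535). ort, a histamine-gated chloride channel of the visual system, stood at 3.48 and 2.51 TPM in the male fru+ libraries, 0.318 and 1.23 in the female fru+ libraries, against 8.14 and 13.3 in the male fru- libraries and 5.80 and 10.9 in the female fru- libraries. It fell by 1.96 on the log2 scale over both sexes (SE 0.31, limma adjusted p = 0.00868) and by 2.39 in females (SE 0.43, limma adjusted p = 0.0457). In males the difference was -1.53 (SE 0.43, limma adjusted p = 0.196). The call over both sexes was lost without the filter on low values (limma adjusted p = 0.0726) and without replicate 2 of the male fru- cells (-1.80, limma adjusted p = 0.0577). The call in females was lost under all 15 alternatives (limma adjusted p of 0.0554 to 0.267), the replicate block among them (0.0554). Retinal markers summed to 1.91 to 6.11 TPM in fru+ libraries and 2.88 to 23.7 TPM in fru- libraries, and their part in this difference was not tested. Rdl, a GABA receptor subunit, had the highest mean of this list (291 TPM, range 154 to 377), and Lcch3, a related subunit with a mean of 285 TPM, stood above it in 3 of 8 libraries. The median difference of the 11 genes over both sexes was -0.31.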

How the data were processed

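RNA was measured in 8 libraries, 2 for each of 4 groups. Per the labels, poly(A) RNA from about 1 ng of total RNA gave unstranded paired-end libraries. The authors trimmed the reads (Trim Galore and Trimmomatic are named), aligned them to dm6 with HISAT2, kept unique alignments, marked duplicates with Picard and ran StringTie 2.1.1 on each library. The deposited TPM values are scaled to 1000000 per library for the assembled loci, and the reference genes sum to 956415 to 985750. The FPKM values were deposited by the authors from the same step, per kilobase and library size. The coverage values deposited by the authors are the mean read depth per base (signal). The authors used featureCounts and DESeq2 for their own tests. No counts were used here, so no counting interval or floor can be given.

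Rows of reference genes were read by gene name, and repeated rows of a gene were added. Levels were compared with limma 3.58.1 (R 4.3.3) on log2(TPM + 1), fitting 4 group means with the eBayes trend and adjusting by Benjamini-Hochberg over 10111 genes with at least 1 TPM in at least 2 libraries, at 0.05. Intervals are 95% intervals of that fit. Exonic lengths came from the BDGP6.54 annotation, in which the 10 genes have the coordinates of the tables. The fit was also run on simulated data with independent normal noise for each gene and differences in the male fru+ group only. Departures shared by the genes of a library were not simulated. Scripts ran in Python 3.11.15 with pandas 2.3.3 and numpy 2.4.6.

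All 10 subunits are named. Genes of the pathway lists are named where they passed the threshold, with the most abundant of each list, ChAT, VAChT and Ace, and the 3 genes most like the summed level. Lcch3 was named after its values were seen. fru checks the sort. CG7708 was matched as the choline transporter by its older symbol. Members and lists were chosen with earlier results of these data known.

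Same-numbered libraries of the 2 sexes came from 1 sorting session by the study's methods. The correlations of their deviations from group means ran from -0.04 to 0.25 over the 6 pairs of groups. By the study's methods the 2 libraries of a group are biological replicates, each from pooled brains. The p-values of the main fit rest on the spread between such pools, joined over the 4 groups and moderated by that of all tested genes. Alternatives were a pseudocount of 0.1, no filter, median-of-ratios scaling, a stricter filter at a mean of 10 TPM, the libraries of a comparison alone, the replicate block, no trend, FPKM, assembled loci and leaving out each library.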

Additional observations from a re-analysis of the deposited data

How the results depend on the processing

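Of 1083 values of single subunits under the alternatives, 1077 stayed on the side of the threshold they had in the main comparison, 6 passed it only under an alternative and 66 had the other sign. Many alternatives leave a difference unchanged by design, such as leaving out a library of a group that is not compared. No subunit was called in any main comparison, so these counts are no measure of robustness. Without a filter on low values 1 subunit was called between all fru+ and all fru- libraries and 1 between male and female fru+. Without the trend of the variance 1 was called between all fru+ and all fru- cells and 1 between female fru+ and female fru- cells. It was nAChRbeta3 each time, listed at 0 in all fru- libraries and tested only because of its female fru+ libraries, so that these calls carry no weight. The other 2 of the 6 were nAChRalpha3 and nAChRalpha7 in females without replicate 2 of the fru- cells. Leaving out each library in turn gave 0 to 2 called subunits between female fru+ and female fru- cells. The replicate block changed no call of a subunit, and of the other genes named it ended that of ort in females. Over all genes, the alternatives gave 65 to 592 calls between all fru+ and all fru- (535 in the main comparison), 5 to 182 in males (52), 0 to 236 in females (66), 5 to 19 between male and female fru+ (9), 6 to 18 between male and female fru- (11), 9 to 32 between all male and all female (23) and 0 to 2 for the interaction (0). The cause of these shifts was not tested.

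The summed log2 ratio of male fru+ over male fru- was 0.13 under median-of-ratios scaling, and that of male over female fru- ran from 0.019 to 0.41 when single libraries were left out. In the same way that of male fru+ over male fru- ran from -0.14 to 0.091, that of female fru+ over female fru- from -0.054 to 0.41 and that of male over female fru+ from -0.23 to 0.24. The mean share of nAChRbeta3 ran from 0.0104% to 0.0207% in the same way. With assembled loci the mean shares were 2.61% for nAChRalpha1, 8.38% for nAChRalpha2, 7.23% for nAChRalpha3, 2.51% for nAChRalpha4, 2.44% for nAChRalpha5, 14.7% for nAChRalpha6 and 43.6% for nAChRbeta1, and 3 of 9 neighbouring pairs kept 1 order in all 8 libraries.

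Leaving out each library in turn turned the sign of the differences below, none of which passed the threshold in the full set. For male fru+ against male fru- the log2 differences then ran from -0.086 to 0.11 for nAChRalpha1, -0.12 to 0.25 for nAChRalpha3, -0.25 to 0.023 for nAChRalpha4 and -6.6e-05 to 0.32 for nAChRbeta1. For female fru+ against female fru- the log2 differences then ran from -0.017 to 1.39 for nAChRalpha3, -0.13 to 0.55 for nAChRalpha4, -0.46 to 0.52 for nAChRalpha6 and -4.6e-05 to 1.29 for nAChRalpha7. For male fru+ against female fru+ the log2 differences then ran from -0.48 to 0.065 for nAChRalpha1, -0.19 to 0.24 for nAChRalpha2, -0.48 to 0.19 for nAChRalpha4, -0.53 to 0.087 for nAChRalpha5, -0.37 to 0.61 for nAChRalpha6, -0.56 to 0.18 for nAChRalpha7 and -0.15 to 0.29 for nAChRbeta1. For male fru- against female fru- the log2 differences then ran from -0.095 to 1.12 for nAChRalpha1, -0.13 to 0.060 for nAChRalpha2 and -0.46 to 0.95 for nAChRalpha3. For all fru+ against all fru- the log2 differences then ran from -0.12 to 0.22 for nAChRalpha4, -0.098 to 0.55 for nAChRalpha5, -0.43 to 0.064 for nAChRalpha6 and -0.096 to 0.55 for nAChRalpha7. For all male against all female the log2 differences then ran from -0.15 to 0.46 for nAChRalpha1, -0.11 to 0.10 for nAChRalpha2, -0.41 to 0.29 for nAChRalpha3, -0.15 to 0.19 for nAChRalpha4, -0.040 to 0.61 for nAChRalpha5 and -0.095 to 0.55 for nAChRalpha7. For the interaction of sex and fru status the log2 differences then ran from -0.15 to 0.27 for nAChRalpha2, -1.32 to 0.086 for nAChRalpha3, -0.66 to 0.014 for nAChRalpha4, -0.92 to 0.070 for nAChRalpha6, -0.36 to 0.084 for nAChRbeta1 and -0.18 to 0.0097 for nAChRbeta2.

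Median-of-ratios scaling turned the sign to 0.027 for nAChRalpha4 (male fru+ against male fru-), -0.012 for nAChRalpha2 (male fru+ against female fru+) and -0.026 for nAChRalpha4 (all male against all female). Centring within exonic length, added after the data were seen, turned the sign to 0.15 for nAChRalpha4 (male fru+ against male fru-), 0.067 for nAChRalpha7 (male fru+ against male fru-), 0.048 for nAChRbeta2 (male fru+ against male fru-), -0.031 for nAChRalpha6 (female fru+ against female fru-), -0.025 for nAChRalpha2 (male fru+ against female fru+), -0.055 for nAChRalpha3 (male fru- against female fru-), -0.12 for nAChRalpha4 (male fru- against female fru-), 0.0071 for nAChRbeta2 (all fru+ against all fru-), -0.12 for nAChRalpha4 (all male against all female) and 0.081 for nAChRbeta2 (the interaction of sex and fru status).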
